A study of Sus scrofa with 8 samples.

Results

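AADAC (ENSSSCG00000031367) encodes arylacetamide deacetylase, a serine ester hydrolase of the endoplasmic reticulum, and it was examined with 3 related ester hydrolases, NCEH1, CES2 and LIPE, in the olfactory epithelium (OE) of sows. AADAC was chosen by its counts in these same libraries, near absent in control and present after androstenone, so its difference between the groups is given as a description with no test. NCEH1 and LIPE were chosen for their relation to AADAC. Of the 4 genes, 3 matched an identifier among the 22516 genes of the files, and all 3 passed the filter on low counts. CES2 matched no identifier and was not analysed here.

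Ester hydrolases of this kind cut ester bonds with an active-site serine. AADAC is best known from liver and intestine, where it hydrolyses drug esters and arylacetamides and takes part in the turnover of stored triacylglycerol. NCEH1 and LIPE share its hydrolase fold, and the nasal mucosa is known to carry esterases that can cleave inhaled esters and odorant esters.

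RNA-seq was made from the OE of 4 sows, offspring of Landrace boars and Rongchang sows, aged 8 months and in estrus. In the androstenone treatment group, 2 sows were sprayed on the nasal cavity with Boarmate, a spray that contains androstenone, a pheromone of boars, and the 2 sows of the control group received no solution. All were sacrificed 30 min later, and the left and right OE of each sow gave separate libraries, 4 per group. The sources used here do not give which libraries share a sow, so each p-value measures the spread between libraries, which may be the 2 sides of 1 animal. Control 1 held 4177968 counts and the other 7 libraries 81579983 to 100685797. In control 4 the 10 most counted genes took 29.4% of the counts, against 6.57% to 9.02% in the others. Of 8 markers of olfactory sensory neurons, 7 were matched, and their summed level was 295 to 360 CPM (counts scaled by library size) in the control group against 289 to 400 CPM with androstenone. OMP, the usual defining marker of these neurons, was not analysed here, and RTP1 and GFY were at 0 in some libraries. Most of the sum came from ANO2 and STOML3, which ranged from 19.04 to 292 CPM and from 48.8 to 224 CPM over the 8 libraries in nearly opposite order. CPM of single genes and of summed lists use a library size corrected by its TMM factor, which allows for a few genes taking a large share of the counts. TPM values also account for transcript length, and are used here to compare genes with each other.

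AADAC was close to the detection limit in the control libraries and close to its relatives in level after androstenone. The control libraries 1 to 4 held 1, 3, 0 and 1 counts of AADAC, while androstenone libraries 1 to 4 held 1023, 974, 1820 and 1702 counts. On the TPM scale its level was 0.0754, 0.0121, 0 and 0.00424 in control 1 to 4 against 3.25, 3.18, 6.40 and 5.59 in androstenone 1 to 4. Every androstenone library was above every control library, as in 3.89% of all genes tested, and among the androstenone libraries the values of 3 and 4 were the higher ones. The group means were 0.0229 ± 0.0353 TPM (SD, n = 4 libraries) and 4.61 ± 1.64 TPM (SD, n = 4). In a bulk tissue, fewer cells of a type and less RNA per cell cannot be told apart. With 2 sows per group, a difference between single animals and one that goes with the spray cannot be told apart either.

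Transcripts at the androstenone level would have been counted in each control library. At the mean androstenone level, control 1 to 4 would have held 70.4, 1325, 1386 and 962 counts of AADAC at their own depths. At the level of androstenone 2, the lowest, they would have held 48.6, 915, 957 and 664 counts. The shallow control 1, with 1 count, had a 95% exact Poisson interval of 0.00520 to 1.14 CPM, against 9.99 to 20.2 CPM in the androstenone libraries. The count of 0 in control 3 had an upper bound of 0.0385 CPM by the same interval, and of 0.0313 CPM at 3 counts. Summed over the libraries, 5519 counts in the androstenone treatment group against 5 in the control group gave a ratio of 745 after scaling, with a 95% exact counting interval of 319 to 2295. Without control 1 the ratio was 914 (357 to 3355), from 4 control counts. These intervals hold counting error alone: the spread between animals is not part of them, and PCR copies of a molecule count as separate reads. The fitted log2 fold change of 9.32 depends on a prior count, given the control level, and is no bound.

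**Figure D1:**
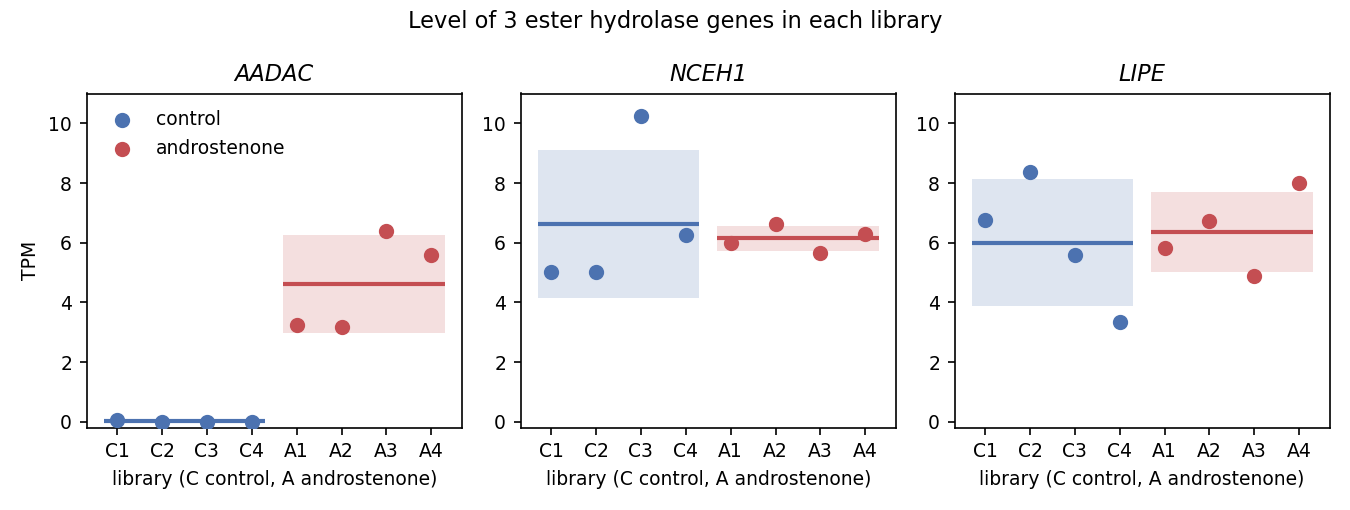
Level in TPM (vertical axis) of AADAC, NCEH1 and LIPE in control libraries C1 to C4 and androstenone libraries A1 to A4, with a line at the group mean and a band of 1 SD (n = 4 libraries). AADAC lay at 0 to 0.0754 TPM among controls and at 3.18 to 6.40 TPM after androstenone, while the points of NCEH1 and LIPE overlapped between the groups.

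NCEH1, a neutral cholesteryl ester hydrolase of the endoplasmic reticulum that is best known from macrophages, had group means that differed by less than its spread between libraries. Its gene lies at chr13:111148677-111207285 of Sscrofa11.1 in the RefSeq annotation. NCEH1 was at 5.01, 5.01, 10.3 and 6.26 TPM in control 1 to 4 and at 6.01, 6.62, 5.65 and 6.30 TPM in androstenone 1 to 4. The groups overlapped, and control 3 stood above all other libraries. In CPM, NCEH1 was at 17.1, 17.0, 35.8 and 27.6 in control 1 to 4, against 22.3 to 25.9 in the androstenone libraries. On that scale control 3 and 4 lay above all androstenone libraries, and control 1 and 2 lay below them. The log2 fold change of NCEH1 on the fitted count scale was -0.01 ± 0.26 (SE), with a 95% interval of -0.61 to 0.58 (edgeR's quasi-likelihood test, unadjusted p = 0.960, Benjamini-Hochberg adjusted p = 0.989). Without control 3 the fitted log2 fold change turned to 0.23 (unadjusted p = 0.323). The spread of NCEH1 between libraries, as the coefficient of variation of its CPM, was 37.4% in control and 6.29% in androstenone libraries.

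LIPE, hormone-sensitive lipase, releases fatty acids from diacylglycerol and cholesteryl esters in adipose and steroidogenic cells. Its gene lies at chr6:49543671-49560126 of Sscrofa11.1. LIPE was at 6.75, 8.36, 5.58 and 3.33 TPM in control 1 to 4 and at 5.82, 6.73, 4.89 and 8.01 TPM in androstenone 1 to 4. The groups overlapped over nearly their whole range, and both the lowest and the highest TPM value belonged to control libraries. In CPM, LIPE was highest in androstenone 4 at 19.4 CPM, against 18.2 CPM in control 2. Its log2 fold change on the fitted count scale was 0.23 ± 0.25 (SE), with a 95% interval of -0.34 to 0.79 (edgeR's quasi-likelihood test, unadjusted p = 0.392, Benjamini-Hochberg adjusted p = 0.718).

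Per transcript length, AADAC reached the level of its relatives in the androstenone libraries only. Its TPM was 54.1%, 48.1%, 113% and 88.7% of that of NCEH1 in androstenone 1 to 4, and 0% to 1.5% in the control libraries. Against LIPE the same shares were 55.8%, 47.3%, 131% and 69.8%, and 0% to 1.12% in the control libraries. AADAC was thus above both relatives in androstenone 3 and below both in the other 7 libraries. Among 35 ester hydrolase genes ordered by TPM within a library, AADAC ranked 24, 25, 18 and 22 in androstenone 1 to 4 and 32 to 35 in the control libraries. NCEH1 ranked between 17 and 23 and LIPE between 18 and 24 in all 8 libraries. The deposited count per TPM of a gene, relative to the median gene of its library, stayed at 1.49 for AADAC over the 4 androstenone libraries, at 1.19 to 1.20 for LIPE and at 1.86 for NCEH1 over all libraries, so that the length used in the scaling did not shift between them.

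The AADAC pattern was then looked for in every gene. Of the 21318 genes tested, 4479 were under 1 CPM in each control library, and of these AADAC alone was over 5 CPM in each androstenone library, which is 0.00469% of the genes tested. In the mirror pattern, 5064 genes were under 1 CPM in each androstenone library and 0 of them were over 5 CPM in each control library. AADAC had been chosen for this pattern, so its own place in the count is no result, but no other gene met it, neither an ester hydrolase nor any other. Of the 4479 genes, 64 had an androstenone mean over 1 CPM, and of the 5064 genes, 287 had a control mean over 1 CPM.

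The distance between the groups was also measured as the lowest androstenone value over the highest control value, each CPM with 0.5 added. This ratio was 14.9 for AADAC. The next genes, named here after their values were seen, carry no symbol in the name table, and their ratios were 7.05 for ENSSSCG00000033114, 4.50 for ENSSSCG00000037358 and 3.60 for ENSSSCG00000020750. ENSSSCG00000020750 came closest to the AADAC pattern, at 0, 0, 1.37 and 0.647 CPM in control 1 to 4 and 12.7, 6.21, 23.0 and 22.2 CPM in androstenone 1 to 4. It missed the pattern through control 3 alone. ENSSSCG00000033114 was at 5.34, 2.88, 2.12 and 1.37 CPM in control 1 to 4 and 78.7, 40.7, 89.7 and 102 CPM in androstenone 1 to 4. It was thus a measured gene in both groups, unlike AADAC. The first gene with a symbol after AADAC was ADH7, an alcohol and retinol dehydrogenase of epithelia, with a ratio of 2.14. In the opposite direction the widest ratio of the lowest control over the highest androstenone value was 5.96, in ENSSSCG00000003006.

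**Figure D2:**
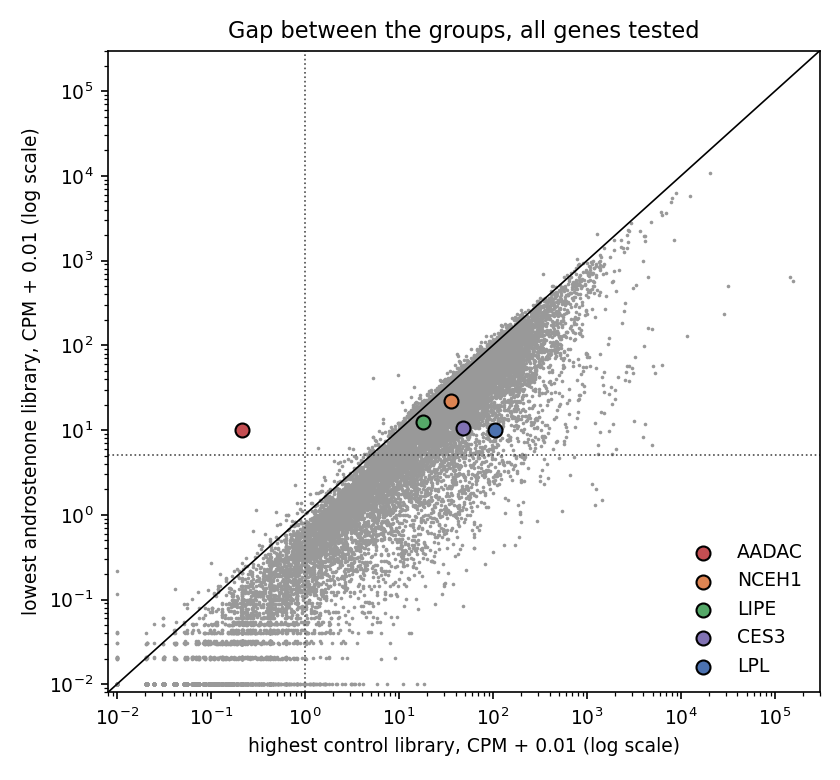
Highest control value (horizontal axis) against lowest androstenone value (vertical axis) of each of the 21318 genes tested, in CPM with 0.01 added, on log scales, with dotted lines at 1 and 5 CPM and a diagonal where both are equal. AADAC is the only gene in the upper left field, while NCEH1, LIPE, CES3 and LPL lie below the diagonal, so that in these 4 genes the lowest androstenone value was under the highest control value.

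Around AADAC, 40 ester hydrolase genes were listed in 4 families, and 35 of them were matched and tested. The others, AADACL2, CES1, CES2, CES4A and BCHE, were found under no identifier and were not analysed here. At the study's cutoff (|log2(FC)| of 1 or more and p under 0.05, here from edgeR's quasi-likelihood test without adjustment), 6.42% of all genes tested were DEGs, 2.04% upregulated and 4.38% downregulated. Of the 34 ester hydrolases other than AADAC, 3 were DEGs, CES5A upward and LPL and LIPC downward. Their median log2 fold change was -0.10, with 15 genes above 0 and 19 below, beside a median of -0.02 over all genes tested. The androstenone libraries were above all control libraries in 2 of the 34, CES5A and ABHD6, and below them in 0, beside 3.89% and 2.64% of all genes tested (6.53% in either direction). These shares lie close to the background. After Benjamini-Hochberg adjustment, 0 genes of the whole table passed edgeR's quasi-likelihood test, in which 2415 genes had an unadjusted p below 0.05. With the same adjustment limma voom passed 0 genes, edgeR's exact test 154, edgeR's likelihood ratio test 200 and DESeq2 670.

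In the family of AADAC itself, the 4 other members tested held 0 DEGs, beside 6.42% DEGs among all genes tested. AADACL3 and AADACL4, relatives that lie near each other on chromosome 6, were below 1 CPM in each library. AADACL3 had 0 to 4 counts in control and 1 to 5 counts in androstenone libraries. AADACL4 was at 0.822, 0.524, 0.0417 and 0.0602 CPM in control 1 to 4 and at 0.115, 0.113, 0.10 and 0.139 CPM in androstenone 1 to 4. Its control values lay on both sides of the androstenone values, with 4, 48, 4 and 4 counts in control 1 to 4 and 9 to 14 counts in the androstenone libraries. Its fitted log2 fold change was -1.30, with a 95% interval of -3.39 to 0.78 (edgeR's quasi-likelihood test, unadjusted p = 0.190, adjusted p = 0.592).

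Carboxylesterases are the main ester cleaving enzymes of liver and airway mucosa. CES3, an enzyme of the endoplasmic reticulum, was the most abundant one measured, at 18.8 ± 7.29 TPM (SD, n = 4) in the control group and 9.73 ± 4.88 TPM (SD, n = 4) with androstenone. Its level was 40.7, 30.5, 47.5 and 21.5 CPM in control 1 to 4 and 31.8, 26.9, 12.0 and 10.5 CPM in androstenone 1 to 4. Androstenone 3 and 4, where AADAC was highest, had the lowest CES3, while androstenone 1 and 2 lay within the control range. The log2 fold change of CES3 was -0.79, with a 95% interval of -1.73 to 0.16 (edgeR's quasi-likelihood test, unadjusted p = 0.0926, adjusted p = 0.495). Without androstenone 1 it was a DEG, downregulated. CES5A, a secreted carboxylesterase known from kidney and epididymis, was a DEG at a very low level. It had 0, 9, 18 and 4 counts in control 1 to 4 and 28, 20, 30 and 22 counts in androstenone 1 to 4, which is 0 to 0.188 CPM against 0.205 to 0.333 CPM. Its log2 fold change was 1.28, with a 95% interval of 0.00 to 2.55 (edgeR's quasi-likelihood test, unadjusted p = 0.0494, adjusted p = 0.440), and with 1 library left out in turn it stayed a DEG only without control 3. ACHE, the acetylcholinesterase that ends cholinergic signals, was at 4.97 ± 3.04 and 3.35 ± 0.53 TPM (SD, n = 4 each) and was no DEG (edgeR's quasi-likelihood test, log2 fold change -0.37, unadjusted p = 0.466).

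The other small-molecule and protein ester hydrolases were the most abundant family, with 12 of 12 measured and 0 DEGs. Among all genes tested, 6.42% were DEGs. PON1, a lactonase known from serum lipoprotein, had the highest mean of all 35 genes, 157 TPM, and was at 61.2, 126, 220 and 274 TPM in control 1 to 4 and 203, 247, 65.6 and 57.2 TPM in androstenone 1 to 4. Its values ranged over the same span in both groups, with androstenone 3 and 4 among the 3 lowest libraries. ESD, a formylglutathione hydrolase, had a mean of 140 TPM and was at 78.8 to 123 CPM in the control group against 118 to 155 CPM with androstenone. The log2 fold change of ESD was 0.42, under the cutoff of 1, with unadjusted p = 0.0482 in edgeR's quasi-likelihood test (adjusted p = 0.440). BPHL, which hydrolyses amino acid esters, had a mean of 84.5 TPM and a log2 fold change of -0.43 (edgeR's quasi-likelihood test, unadjusted p = 0.110).

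Among the 15 neutral lipid lipases, all measured, 2 were DEGs and both were downregulated, beside 6.42% DEGs and 4.38% downregulated DEGs among all genes tested. LPL, the lipoprotein lipase of fat, muscle and macrophages, was at 18.9, 61.2, 7.10 and 104 CPM in control 1 to 4 and at 10.1, 10.7, 13.1 and 13.5 CPM in androstenone 1 to 4. The androstenone values were close together and lay above control 3 and below the other 3 controls. The log2 fold change of LPL was -2.02, with a 95% interval of -3.64 to -0.41 (edgeR's quasi-likelihood test, unadjusted p = 0.0200, adjusted p = 0.416). Without control 4 it was -1.30 (unadjusted p = 0.0714) and no longer a DEG. LIPC, hepatic lipase, was at 0.822, 1.23, 1.83 and 32.7 CPM in control 1 to 4, while the androstenone libraries lay at 0.647 to 1.90 CPM. Control 4 alone stood apart, and the log2 fold change of -2.88 (edgeR's quasi-likelihood test, unadjusted p = 0.0422, adjusted p = 0.435) went to -0.10 (unadjusted p = 0.851) without it. LIPC was also no DEG without any 1 of the androstenone libraries.

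Control 4 also held bone and cartilage markers at high levels. Its 8 bone and cartilage markers summed to 170304 CPM, against 3621 to 13334 CPM in the other control libraries and 1306 to 4514 CPM in the androstenone treatment group. Of these 8 markers 7 were DEGs, all downregulated, and without control 4 only ACAN remained one. The 8 adipocyte markers summed to 21.8 to 68.6 CPM in the control group, highest in control 4, and to 21.8 to 27.4 CPM in the androstenone treatment group, with LEP at 0 in some libraries. In control 4, FABP4 alone was at 54.0 CPM, and no other adipocyte marker had its highest control value there. PLIN1 and CIDEA had their lowest control values in control 4. In control 3, ADIG was at 41.1 CPM of a sum of 53.1 CPM. Among the 8 adipocyte markers FABP4 was a downregulated and PLIN4 an upregulated DEG, beside 6.42% DEGs among all genes tested. FABP4 was none without control 4, androstenone 1 or androstenone 2, and PLIN4 none without control 1, 2 or 4 or androstenone 1 or 2. The part of these markers in the LPL and LIPC values was not tested.

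The 3 most abundant lipases, LIPA, DDHD2 and ABHD12, were no DEGs. LIPA, the acid lipase of lysosomes, had a log2 fold change of 0.02 with a 95% interval of -0.57 to 0.61. DDHD2, a neuronal triacylglycerol hydrolase, had one of -0.32 (-0.86 to 0.22), and ABHD12, a lysophospholipid lipase, one of 0.04 (-0.67 to 0.75). Apart from AADAC and the very low CES5A, ABHD6, a monoacylglycerol lipase, was the only ester hydrolase whose groups did not overlap. It was at 27.5, 26.1, 19.95 and 20.3 CPM in control 1 to 4 and at 33.5, 31.8, 30.2 and 32.6 CPM in androstenone 1 to 4. Its log2 fold change of 0.45 was under the cutoff, with a 95% interval of 0.08 to 0.82 (edgeR's quasi-likelihood test, unadjusted p = 0.0229, adjusted p = 0.416).

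**Figure D3:**
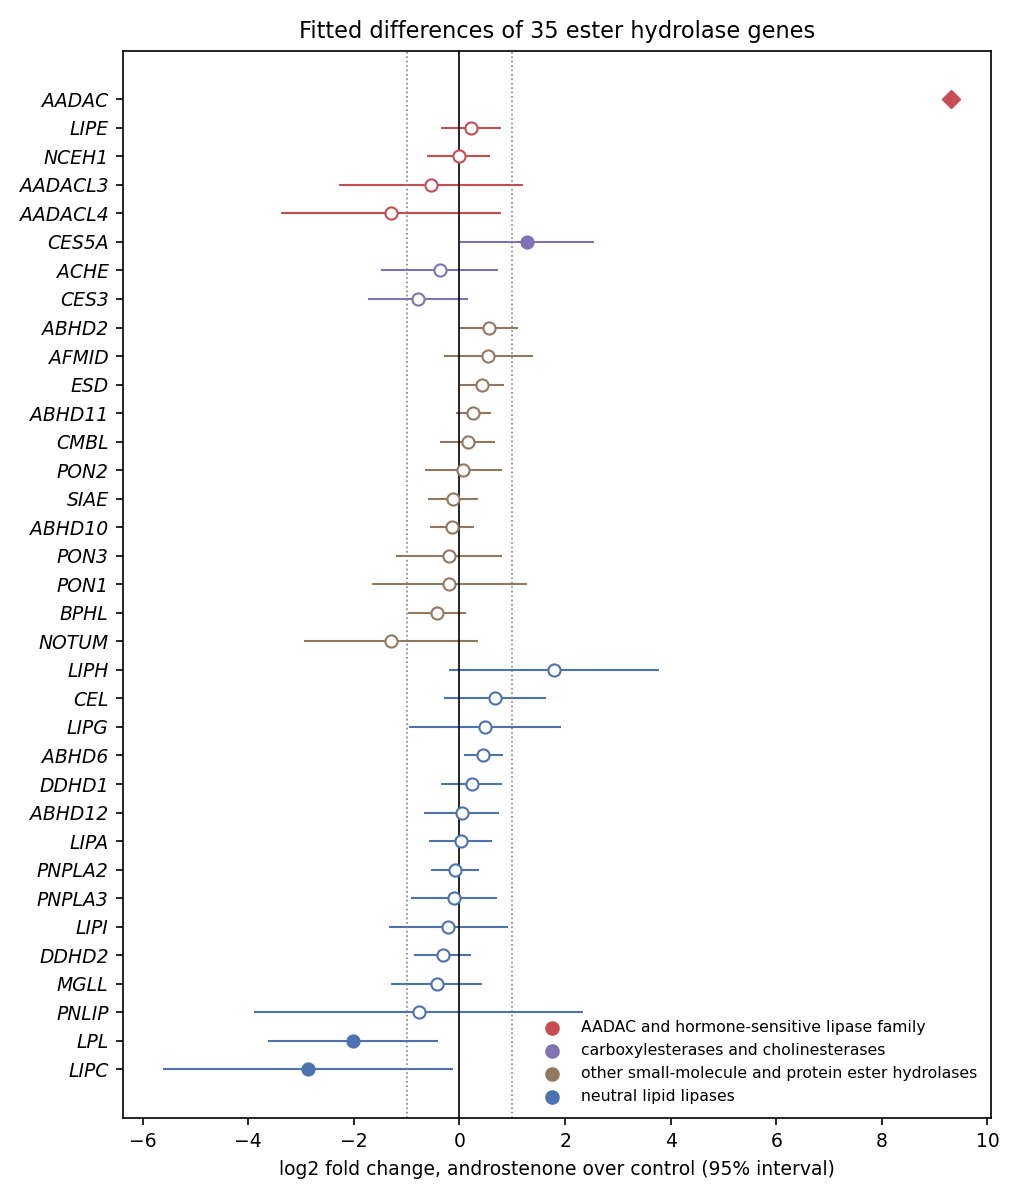
Fitted log2 fold change, androstenone over control (horizontal axis), of 35 ester hydrolase genes, with 95% intervals as lines, dotted lines at -1 and 1, and filled circles for DEGs. AADAC (diamond, with no interval since it was chosen for this contrast) lies at 9.32, and the 34 other genes lie between -2.88 and 1.79, with an interval that includes 0 for NCEH1 and LIPE.

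Most of the ester hydrolases, NCEH1 and CES3 among them, divided the androstenone libraries into 1 and 2 against 3 and 4. The share of all genes with this division was not counted, so it is not read as a trait of these genes. LIPH, a phosphatidic acid phospholipase, was at 6.51 and 9.64 CPM in androstenone 1 and 2 but at 0.867 and 0.687 CPM in androstenone 3 and 4, beside 0.797 to 2.24 CPM in the control libraries. PON1, AFMID, CES3 and NCEH1, among others, likewise were higher in androstenone 1 and 2 than in androstenone 3 and 4. AADAC was higher in androstenone 3 and 4, as were LIPG, NOTUM, LIPA, DDHD2, MGLL and LPL, among others. The 2 lower androstenone values of AADAC were still many times its highest control value. Summed markers of respiratory ciliated cells had the same division, at 2119 and 2388 CPM in androstenone 1 and 2, 655 and 559 CPM in androstenone 3 and 4, and 500 to 2424 CPM in the control group. Their part in these values was not tested.

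**Figure D4:**
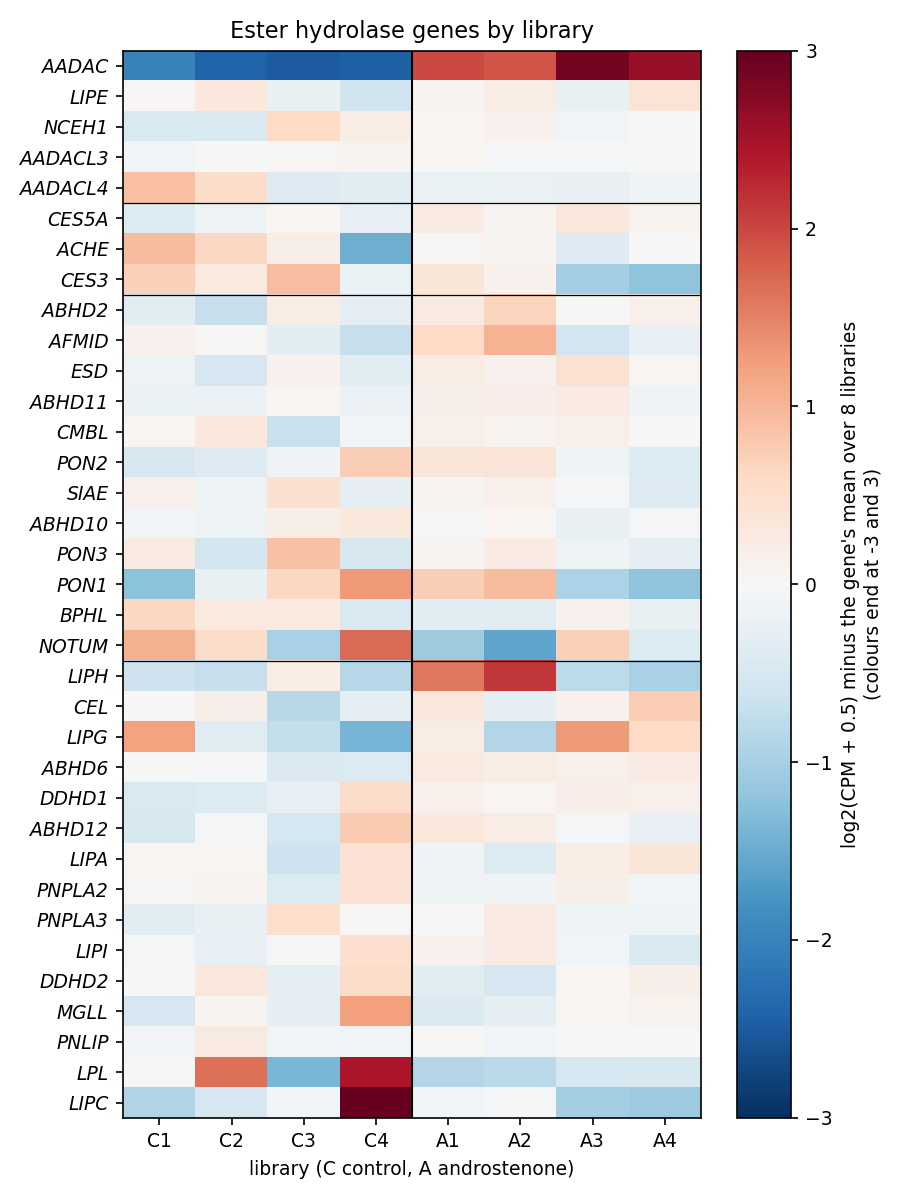
Level of 35 ester hydrolase genes (rows) in control libraries C1 to C4 and androstenone libraries A1 to A4 (columns), as log2(CPM + 0.5) minus the gene's mean over 8 libraries, with colours ending at -3 and 3. The AADAC row is low in C1 to C4 and high in A1 to A4, LPL and LIPC stand out in C4, and LIPH in A1 and A2.

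AADAC marks liver and intestine, and the markers of these tissues were examined for that reason. The 8 hepatocyte markers summed to 144, 209, 21.3 and 127 CPM in control 1 to 4 and to 34.02, 17.5, 197 and 128 CPM in androstenone 1 to 4. The summed ranges overlapped, and APOA1, at 4.00 to 183 CPM, made up most of the sum in most libraries. FGB (fibrinogen) was at 1.92 to 3.32 CPM in control and 1.10 to 1.77 CPM in androstenone libraries. It was the 1 marker of the list whose groups did not overlap, beside 6.53% of all genes tested. ALB (albumin) was at 1.85 CPM or less in each library, and TTR and AHSG were at 0 in some libraries. Of the 8 markers 0 were DEGs, beside 6.42% DEGs among all genes tested. The 5 matched enterocyte markers summed to 2.88 to 9.29 CPM in the control group and 1.69 to 2.61 CPM in the androstenone treatment group. These ranges did not overlap, and the androstenone libraries were the lower ones, but taken alone each of the 5 markers overlapped between the groups. FABP2, a fatty acid binding protein of the gut, was the 1 DEG among them, downregulated with a log2 fold change of -2.44 (edgeR's quasi-likelihood test, unadjusted p = 0.0147, adjusted p = 0.416), and it was not one without control 3. In control 3 and 4 most of the sum was FABP2, at 8.42 and 3.10 CPM. FABP2 was at 0.411 and 0.862 CPM in control 1 and 2, and at 0.461 to 0.767 CPM in androstenone libraries. SI and APOA4 were at 0 in some libraries, and SI was at 0.411 CPM or less in each.

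Other cell types of the nasal mucosa overlapped between the groups in their summed markers. The 8 macrophage markers summed to 297 to 1255 CPM in the control group against 334 to 1022 CPM with androstenone. The 7 lymphocyte markers summed to 119 to 559 CPM and 164 to 583 CPM in the same order. The 2 sustentacular cell markers summed to 154 to 621 CPM and 143 to 469 CPM, and the 3 goblet cell markers to 274 to 994 CPM and 270.0 to 1778 CPM. Nearly all of the sustentacular sum was SEC14L3, since ERMN was at 0.411 to 4.24 CPM. UGT2A1, also on that list, matched no identifier. The 6 nasal gland markers summed to 3724 to 14529 CPM and 4524 to 12165 CPM, with LYZ (lysozyme) as an upregulated DEG that was kept with any 1 library left out. Among all genes tested, 2.04% were upregulated DEGs. The log2 fold change of LYZ was 1.36 (edgeR's quasi-likelihood test, unadjusted p = 0.00817, adjusted p = 0.393). Its groups overlapped, with control 3 at 79.4 CPM and androstenone 3 at 75.5 CPM. Of the 6 markers, 5 had a log2 fold change above 0, and LTF had one of -1.14. None of these lists separated the groups as AADAC did, and their part in its level was not tested.

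Transcription factors that control hepatic and xenobiotic genes were measured as a list of 11 genes. Of these, 1 was a DEG, NR1H4 (the bile acid receptor FXR), and it was downregulated. Among all genes tested, 6.42% were DEGs and 4.38% were downregulated DEGs. NR1H4 was at 1.44, 1.22, 0.803 and 0.737 CPM in control 1 to 4 and at 0.555, 0.379, 0.289 and 0.587 CPM in androstenone 1 to 4. All androstenone libraries were below all control libraries, as in 2.64% of all genes tested, at levels near 1 CPM. Its log2 fold change was -1.16, with a 95% interval of -2.03 to -0.29 (edgeR's quasi-likelihood test, unadjusted p = 0.0146, adjusted p = 0.416), and it was no DEG without androstenone 3. The most abundant factors, FOXA1, CEBPA and HNF4G, had means of 42.5, 12.5 and 6.17 TPM, and log2 fold changes of 0.59, 0.60 and 0.06 with p from 0.155 to 0.908 in edgeR's quasi-likelihood test. HNF4A was at 0.964 CPM or less in each library. The median log2 fold change of the list was 0.05.

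Lipase cofactors and the genes of cholesterol esterification and cholesterol efflux held 0 DEGs among 7 and 5 genes measured. The share among all genes tested was 6.42%. LMF1, needed for the maturation of secreted lipases, PLIN2, a lipid droplet coat protein, and PLIN3, its relative, were the most abundant cofactors at means of 33.1, 25.2 and 22.2 TPM. Their log2 fold changes were 0.13, -0.67 and -0.11. ABHD5 and G0S2, the coactivator and inhibitor of adipose triglyceride lipase, had log2 fold changes of 0.18 and 0.32, with intervals that included 0. ABCG1, a cholesterol exporter, was at 75.4, 46.1, 61.4 and 35.1 CPM in control 1 to 4 and at 111, 114, 99.3 and 93.4 CPM in androstenone 1 to 4. All androstenone libraries were above all control libraries, as in 3.89% of all genes tested. Its log2 fold change of 0.94 fell short of the cutoff, with a 95% interval of 0.39 to 1.49 (edgeR's quasi-likelihood test, unadjusted p = 0.00396, adjusted p = 0.393). SOAT1, which esterifies cholesterol, and ABCA1, the other exporter, had log2 fold changes of 0.23 and -0.06, and their groups overlapped.

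The genes whose level over the 8 libraries was most like that of AADAC were taken from 15945 genes with a mean of at least 1 CPM, by Pearson's r of log2(CPM + 0.5). FAM210B (r = 0.99), ENSSSCG00000033114 (r = 0.99), BUD23 (r = 0.98), ENSSSCG00000033744 (r = 0.98) and PSKH1 (r = 0.98) came first, followed by EXOSC5 (r = 0.98), TBRG4 (r = 0.97), TMEM243 (r = 0.97) and ENSSSCG00000045808 (r = 0.97). The 8 points share the contrast for which AADAC was chosen and fall into 2 groups, so that these values describe separation between the groups more than agreement within them. In these 9 genes the groups did not overlap, and their log2 fold changes were smaller than that of AADAC, at 0.31 to 0.78 in 8 of them and 4.83 in ENSSSCG00000033114. FAM210B, a mitochondrial protein of erythroid cells, went from 38.2 ± 2.35 CPM to 56.3 ± 2.92 CPM (SD, n = 4 each). With AADAC itself, NCEH1 had an r of 0.03 and LIPE of 0.37 over the same 8 libraries, and NCEH1 and LIPE had one of -0.44 with each other. The genes most like NCEH1 were RASAL2, DDX5, RNFT1, SKOR1 and SNX4, with r from 0.96 to 0.99, and those most like LIPE were DOCK2, CEP57, GPR18, GINS4 and IER2, with r from 0.95 to 0.99. In none of these 10 genes did the groups separate. They were picked for likeness to NCEH1 and LIPE, whose groups overlap, so this is no result.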

How the data were processed

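RNA-seq of 8 OE libraries (4 control, 4 androstenone) was used. Reads were cleaned by the authors with fastp 0.23.1, quantified with kallisto 0.48.0 on Sscrofa11.1 (Ensembl release 108) and deposited an estimated count per gene, not normalized. They also deposited TPM values, scaled by the authors for transcript length and library total. How transcripts were joined into genes is not stated in those sources, and kallisto can split reads between near-identical transcripts. The summed counts were 4177968 (control 1) and 81579983 to 100685797 (7 other libraries). A count of 0 thus allowed up to 0.616 CPM in control 1 and far less elsewhere.

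Estimated counts were rounded, genes with at least 1 count over 8 libraries kept (21318 of 22516) and tested with edgeR 4.0.16 (TMM, quasi-likelihood test, group as the only term) in R 4.3.3. DEGs passed the study's cutoff, |log2(FC)| of 1 or more with p under 0.05, and p-values were also Benjamini-Hochberg adjusted over all genes. Symbols came from a gene name table, which matched 15527 identifiers. Locations came from RefSeq, whose table held no entry under the symbol AADAC. Tests were checked on simulated counts. Alternatives were RLE or no size factors, other filters, edgeR's exact and likelihood ratio tests, DESeq2 1.42.0, limma 3.58.1 (voom, and log2 TPM with 0.1 or 1 added), 9 ways of summing counts per sow, the replicate number as a block, and each library left out. Intervals used scipy 1.17.1 in Python 3.11.15.

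The 4 genes, the gene and marker lists and the tests were chosen with earlier results of these data known. Named genes were the members, each listed gene that was a DEG, the 3 most abundant genes of each pathway list, the 10 genes most like AADAC (1 of them is not reported here) and 5 most like NCEH1 and LIPE, and genes with the AADAC pattern. Genes named for another reason (AFMID, LIPG, LIPH, MGLL, NOTUM, AADACL3, AADACL4, ABHD5, ABHD6, G0S2, HNF4A, single markers, and the genes with a wide gap between the groups) were chosen after their values were seen.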

Additional observations from a re-analysis of the deposited data

Results flagged for a closer look

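In each group of 4 libraries, each of the 35 ester hydrolases was searched for a single value far from the others, where the gap to the nearest one divided by the group's range passed Dixon's 95% critical value for 4 samples. Of 70 group values, 7 passed. The critical value lets about 1 in 20 pass by chance if values are normally distributed, which CPM of a few counts are not. The 7 are thus not read against that share. In the control group, control 4 stood apart for LIPC (32.7 CPM, others 0.822 to 1.83) and DDHD1 (24.9 CPM, others 12.1 to 14.1). Control 3 did so for ABHD11 (49.6 CPM, others 41.7 to 42.1) and LIPH (2.24 CPM, others 0.797 to 1.03). Control 2 held the PNLIP counts of its group (0.142 CPM, others 0). Control 1 stood apart for AADAC (0.205 CPM, others 0 to 0.0327), which is 1 count in the shallowest library. In the androstenone treatment group, androstenone 3 stood apart for PNPLA2 (40.8 CPM, others 33.2 to 34.1). No cause of these values was tested.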

How the results depend on the processing

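The log2 fold change of AADAC was 5.23 on log2(TPM + 0.1) and 2.41 on log2(TPM + 1), where the added value is large beside the control level, and 8.71 to 9.84 with each library left out. That of NCEH1, -0.01, changed sign to 0.0557 with library size only, to 0.0619 with the replicate number as a block and to 0.0035 with counts summed per sow in pairing 1. With each library left out it was -0.15 to 0.23, and in no alternative was NCEH1 a DEG. LIPE kept its direction and its side of the cutoff throughout (0.08 to 0.40). Alternatives for CES2 gave no value.

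All genes gave 1368 DEGs, 718 and 319 on the 2 TPM scales, 583 with the block, 867 to 2414 with each library left out (867 without androstenone 1, 881 without androstenone 2, 2414 without control 3), and 736, 368, 767, 733 and 853 in sow pairings 1, 4, 5, 6 and 7. The 3 ester hydrolase DEGs became 1 with voom, 0 on both TPM scales, 0 with the block, 0 to 4 with each library left out (0 without control 4, 1 without androstenone 2), and 1, 0, 1, 1 and 1 in those pairings. With edgeR's likelihood ratio and exact tests all genes gave 1978 and 1608 DEGs, and the ester hydrolases other than AADAC gave 4 in each. LIPH was an upregulated DEG in both and in DESeq2. It was also one without androstenone 3 or 4 and in sow pairings 2, 3, 8 and 9. Same-numbered libraries deviated from their group means with r of -0.04, -0.50, -0.60 and 0.17 over 18360 genes, so the numbers were not taken to pair the samples. Depth limits AADAC in control 1, where 1 count is compatible with up to 1.14 CPM, and genes below it such as CES5A and AADACL4.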
